A study of Mus musculus with 6 samples.

Results

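The genes that flank Mir137 on mouse chromosome 3 were examined in the liver of mice with and without miR-137. The 8 genes were Plppr4, Plppr5, Snx7, Dpyd, Ptbp2, Rwdd3, Tlcd4 and Alg14. In the order of the reference gene table, Plppr4, Plppr5 and Snx7 lie on one side of Mir137, and Dpyd, Ptbp2, Rwdd3, Tlcd4 and Alg14 follow on the other. Members were all probe sets annotated with exactly 1 gene symbol that was one of these 8, which gave 21 of the 45037 probe sets tested and 8 of 18193 measured genes. The rule itself used no measured value, but the 8 genes were chosen with earlier results of these data known.

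A targeted allele is usually built in embryonic stem (ES) cells of one strain and then bred into another, so the genes beside a deletion travel with it through the crosses. Neighbours of a targeted gene are for that reason read one by one in knockout mice. MicroRNA-137 is a small RNA abundant in neurons that lowers the output of messages carrying a match to its seed. Its neighbours have unrelated roles: pyrimidine breakdown for Dpyd, neuronal splicing for Ptbp2, SUMO conjugation for Rwdd3, endosomal sorting for Snx7, glycoprotein assembly for Alg14 and growth of neuronal processes for Plppr4 and Plppr5.

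Livers were taken at postnatal day 14 from Mir137-/- mice, which lack miR-137 in the whole body, and from Mir137+/+ mice, with 3 mice of each genotype and 1 mouse per array. The mice had no special treatment, and the study's methods describe them as males. Per those methods, the miR-137 exon region was deleted by Cre in E14 ES cells, a line from another strain, chimeras were bred with C57BL/6 mice, and heterozygotes were crossed with each other to obtain both genotypes. Mir137-/- mice therefore carry the ES-cell copy of the locus on both chromosomes, whereas Mir137+/+ mice carry it on neither. The targeting vector also placed a loxP site before the deleted exons and a neomycin resistance gene with a loxP site after them. What remained of these inserts was not checked here. How far the ES-cell segment extends on each side was not measured. Within it the deletion, any remaining insert and the linked strain alleles cannot be told apart. Whether strain variants lie under the probes was not tested, so a difference between genotypes on a probe set is a difference in hybridisation signal, which need not equal that in message. Messages were read with an Affymetrix Mouse Genome array, on which a probe set is a group of short probes read as 1 value. Which transcripts each probe set reads was not checked here. Values are log2 levels made by the authors.

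The miR-137 hairpin is shown because it lies in the larger exon region removed in Mir137-/- mice and is the point from which neighbours were counted. In RefSeq (GRCm38.p6) it lies at chr3:118433857-118433929 on the + strand. Capitals mark the mature 5p and 3p arms in the hairpin, and the seed (bases 2 to 8) in each mature sequence.
Mir137 hairpin: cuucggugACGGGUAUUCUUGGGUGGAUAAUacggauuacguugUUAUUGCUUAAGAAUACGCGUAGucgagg
miR-137-5p: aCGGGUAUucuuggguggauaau
miR-137-3p: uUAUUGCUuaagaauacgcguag
Each seed was found in 1 of 1738 mature mouse miRNAs of the table, its own. Mir137 had no probe set on the array, so its loss could not be read from these values.

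Of the 8 genes, 3 had a probe set that passed the test, with Ptbp2 and Rwdd3 higher and Dpyd lower in Mir137-/-. Calls needed both an adjusted p below 0.05 (Benjamini-Hochberg, over all probe sets tested with limma) and a fold change above 1.5, which is 0.585 on the log2 scale. Of the 21 probe sets, 3 were called higher and 1 lower, together 19.05%, whereas 4.52% of all probe sets were called in either direction, 1.94% higher and 2.58% lower. An adjusted p below 0.05 at any fold was reached by 6 of the 21 (28.57%), against 7.73% of all probe sets. The lowest and highest values of the genotypes did not overlap in 10 of the 21 (47.62%), against 27.5% of all probe sets. The median absolute log2 difference was 0.28 over the 21 probe sets and 0.14 over all. The signed median was 0 over the 21 and 0.01 over all, since the differences went in both directions. Several probe sets share 1 gene and are not independent of each other. Since the genes were chosen with earlier results known, these shares are a description and not a test.

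**Figure D1:**
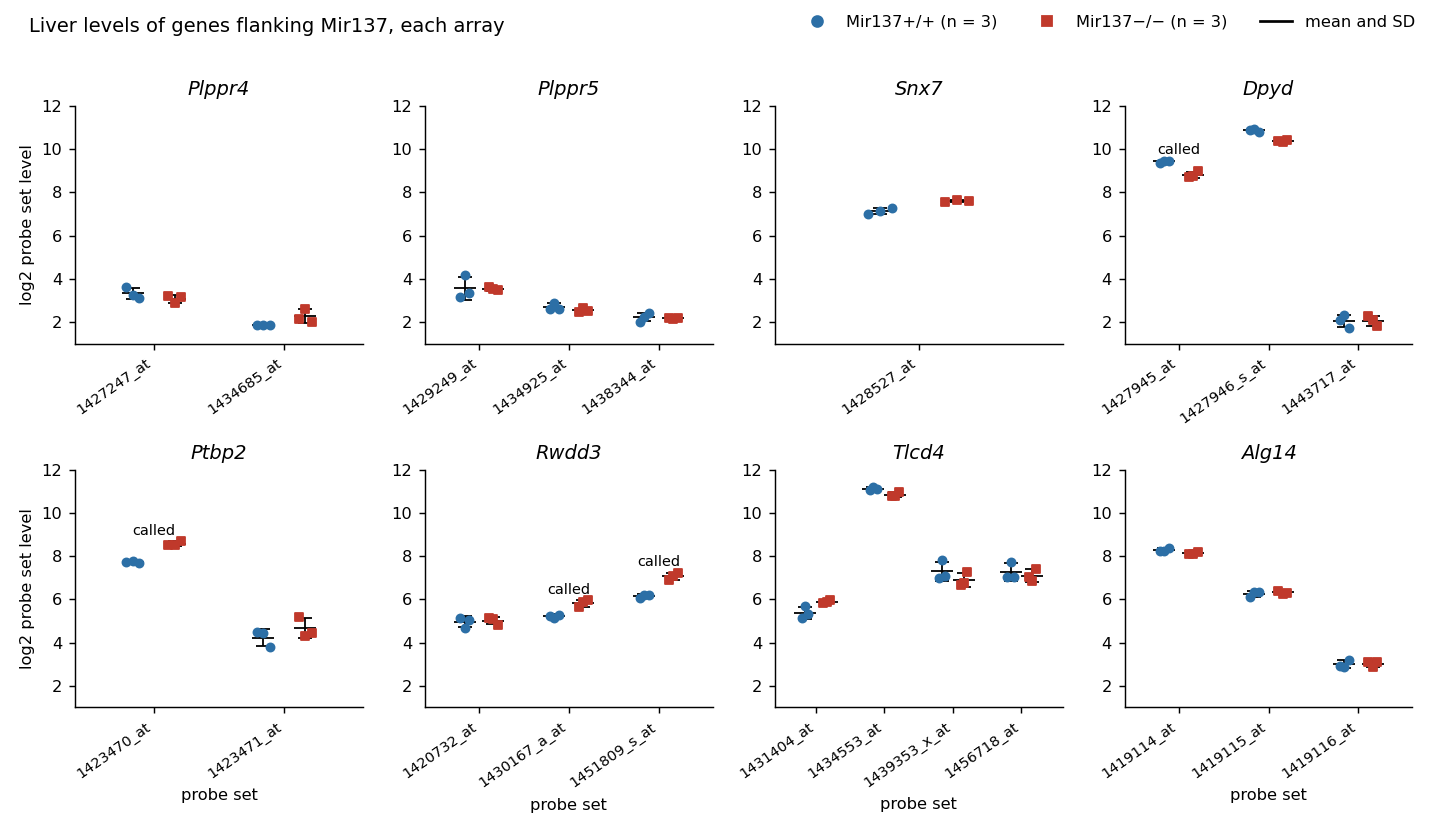
Log2 levels (y axis) of the 21 probe sets (x axis) of the 8 flanking genes on each of the 6 arrays, with the mean and SD of each genotype (circles, Mir137+/+; squares, Mir137-/-; n = 3 each). The called probe sets are 1427945_at of Dpyd, lower in Mir137-/-, and 1423470_at of Ptbp2 and 2 probe sets of Rwdd3, higher in Mir137-/-.

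Of the arrays themselves, medians lay between 4.88 and 4.91 and lower quartiles between 3.4 and 3.47. Hepatocyte markers were strong on all arrays, with Alb between 13.71 and 13.79, at the top of the range of the array where differences are hard to see, and 0 of 6 measured markers called by limma or the methods' t-test (0 and 1 at an unadjusted p below 0.05). Skeletal muscle transcripts stood 5.13 above the Mir137+/+ mean in Mir137-/- replicate 1 (median log2 deviation of 8 genes) and -0.04 to 0.23 elsewhere. Transcripts of exocrine pancreas stood at 2.89 in Mir137-/- replicate 2 and 1.83 in Mir137+/+ replicate 2, and at -1.01 to -0.85 on the other 4 arrays (8 genes). Xist, the RNA of the inactive X chromosome, averaged 10.47 and 10.14 in Mir137+/+ replicates 2 and 3 and 2.76 to 2.83 elsewhere, so 2 of the 3 Mir137+/+ arrays went against the stated sex. Results are therefore also given below without the arrays concerned, and with Xist as a term, where each difference is that of Mir137-/- against Mir137+/+ replicate 1 alone, a single control array that is assumed to vary like the others.

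Ptbp2 encodes the neuronal polypyrimidine tract-binding protein, an RNA-binding repressor of exons that is used in developing neurons in place of its relative Ptbp1. On probe set 1423470_at the Mir137-/- livers were at 8.52, 8.5 and 8.7 and the Mir137+/+ livers at 7.71, 7.76 and 7.67. All Mir137-/- values lay above all Mir137+/+ values. The means were 8.57 ± 0.11 and 7.71 ± 0.05 (SD, n = 3 each), a rise of 0.86 on the log2 scale (SE 0.1, 95% CI 0.64 to 1.08, limma adjusted p = 0.00176) or 1.82-fold. This probe set was called under all 17 alternatives tried, at differences of 0.8 to 0.92. Among these, unadjusted p and no fold threshold only loosen the rule and could not remove a call. The probe set rose by 0.89 without Mir137-/- replicate 1 and by 0.92 without both arrays with pancreas transcripts. With Xist as a term, against 1 control array, the value was 0.86 (adjusted p = 0.0441). The other probe set, 1423471_at, read 5.19, 4.32 and 4.46 in Mir137-/- and 4.48, 4.42 and 3.79 in Mir137+/+. These values overlapped, and the difference of 0.43 did not pass (95% CI -0.15 to 1, adjusted p = 0.376), with an interval that holds the value of the first probe set.

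The RNA source beside this result was examined with neuron markers, because Ptbp2 is best known from neurons. Of 10 neuron markers, 6 lay below the array median on all arrays, among them Snap25 at 1.92 to 2.57 and Tubb3 at 2.97 to 3.25. One marker was called, Syt1, at 0.65 (adjusted p = 0.0329 over genes, 0.145 by the methods' t-test). The median deviation of the 10 markers was -0.06 to 0.17 in Mir137-/- and -0.1 to 0.03 in Mir137+/+, which overlapped. Of 7 blood precursor markers measured, 3 were called lower (Myb at -3.11, Ngp at -2.03 and Mpo at -1.92 on the log2 scale). Of these, 2 (Myb and Ngp) were also called by the methods' t-test. The other markers were not called, with Elane at -0.7, Gata1 at -0.12, Klf1 at -0.07 and Alas2 at 0.04. The median deviation of the 7 was -1.01 to -0.43 in Mir137-/- and -0.21 to 0.16 in Mir137+/+. Kupffer cell markers were at 0.14 to 0.26 against -0.06 to 0.06. Of these, 0 of 6 were called by either test (2 by limma and 3 by the methods' t-test at an unadjusted p below 0.05). Of the endothelial markers 0 of 5 were called (1 and 1). Of 5 stellate markers only Lrat was called, at -0.67 (limma adjusted p = 0.0359 over genes, 0.155 by the methods' t-test). The other stellate markers went both ways, with Des at 0.45, Dcn at 0.16, Reln at 0.11 and Col1a1 at -0.27. The median deviation of the 5 was -0.04 to 0.19 in Mir137-/- and -0.05 to 0.07 in Mir137+/+, which overlapped. The part of these cell types in the levels of the flanking genes was not tested. In whole liver, fewer cells of a type and less RNA per cell cannot be told apart.

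Rwdd3, also called RSUME, encodes a small RWD-domain protein that promotes conjugation of SUMO to other proteins. Probe set 1451809_s_at was at 6.91, 7.08 and 7.24 in Mir137-/- and at 6.08, 6.22 and 6.22 in Mir137+/+. The genotypes were separate, with means of 7.08 ± 0.17 and 6.17 ± 0.08 (SD, n = 3 each). The rise was 0.9 (SE 0.11, 95% CI 0.65 to 1.16, limma adjusted p = 0.00259), or 1.87-fold, and its range over the alternatives was 0.82 to 1. It was lost in 1 of 17 alternatives, the methods' t-test, at an adjusted p of 0.0526.

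A second Rwdd3 probe set, 1430167_a_at, read 5.65, 5.86 and 5.95 in Mir137-/- and 5.23, 5.12 and 5.29 in Mir137+/+. Its means of 5.82 ± 0.15 and 5.21 ± 0.09 (SD, n = 3 each) gave a rise of 0.61 (SE 0.11, 95% CI 0.35 to 0.86, limma adjusted p = 0.0144), or 1.52-fold. The genotypes were again separate, but the fold was close to the threshold and the call was lost in 5 of 17 alternatives. The values there were 0.59 with Xist as a term (adjusted p = 0.165), 0.54 without the pancreas arrays (adjusted p = 0.136), 0.54 without Mir137-/- replicate 3, 0.56 without Mir137+/+ replicate 2 (adjusted p = 0.0591) and an adjusted p of 0.0818 by the methods' t-test. Probe set 1420732_at was at 5.16, 5.07 and 4.82 in Mir137-/- and at 5.16, 4.69 and 5.04 in Mir137+/+. Here the genotypes overlapped, the difference was 0.05 (95% CI -0.28 to 0.39, adjusted p = 0.878), and its interval did not reach the 0.61 and 0.9 of the other probe sets. The probe sets of Rwdd3 thus disagreed, and the transcript forms they read were not compared here.

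Dpyd encodes dihydropyrimidine dehydrogenase, the first and rate-limiting enzyme in the breakdown of uracil and thymine, which is abundant in liver. On 1427945_at the Mir137-/- livers were at 8.73, 8.75 and 8.98 and the Mir137+/+ livers at 9.38, 9.44 and 9.47. Every Mir137-/- value lay below every Mir137+/+ value. The means of 8.82 ± 0.14 and 9.43 ± 0.05 (SD, n = 3 each) differed by -0.61 (SE 0.1, 95% CI -0.85 to -0.37, limma adjusted p = 0.0104), or 1.53-fold. The second probe set, 1427946_s_at, read 10.36, 10.32 and 10.44 in Mir137-/- and 10.87, 10.93 and 10.81 in Mir137+/+. It was also separate and passed the adjusted p but not the fold, with a difference of -0.5 (SE 0.09, 95% CI -0.71 to -0.29, limma adjusted p = 0.0156), or 1.41-fold, and its adjusted p was 0.0562 without Mir137+/+ replicate 1, 0.0627 without Mir137+/+ replicate 2, 0.138 without the pancreas arrays and 0.165 with Xist as a term. The call of 1427945_at lay at the edge of the fold threshold and was lost in 6 of 17 alternatives. Its difference was -0.57 when Mir137-/- replicate 1, in which muscle transcripts were seen, was left out, without Mir137-/- replicate 2, without both pancreas arrays (adjusted p = 0.108) and after quantile normalization, and -0.56 with Xist as a term (adjusted p = 0.156), while the methods' t-test gave an adjusted p of 0.0637. The direction was lower under all 17 for both probe sets, at -0.69 to -0.56 and -0.53 to -0.44. The remaining probe set, 1443717_at, lay below the array median on all arrays, at 2.27, 2.09 and 1.81 in Mir137-/- and 2.11, 2.31 and 1.74 in Mir137+/+, with a difference of 0 (95% CI -0.38 to 0.39, adjusted p = 0.992).

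Snx7, a sorting nexin with a membrane-curving BAR domain that acts with Snx4 in recycling from endosomes, is the nearest measured gene on the other side of Mir137. Its probe set 1428527_at was at 7.54, 7.63 and 7.59 in Mir137-/- and at 7.02, 7.15 and 7.28 in Mir137+/+. The genotypes did not overlap, and the difference of 0.44 passed the adjusted p but not the fold (SE 0.1, 95% CI 0.2 to 0.67, limma adjusted p = 0.0361, 1.35-fold). Without 1 array at a time it stayed between 0.37 and 0.5, with adjusted p values of 0.0586 to 0.118. The adjusted p was also above 0.05 without the pancreas arrays (0.42, adjusted p = 0.207), with Xist as a term (0.57, adjusted p = 0.117), by the methods' t-test (0.0917) and with the replicate block (0.0665).

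Tlcd4, a membrane protein with the TLC domain also found in ceramide synthases, had probe sets that went in opposite directions, none of them called. On 1431404_at the levels were 5.84, 5.87 and 5.99 in Mir137-/- and 5.15, 5.7 and 5.3 in Mir137+/+, separate by genotype, with a difference of 0.52 (95% CI 0.19 to 0.85, adjusted p = 0.0685). On 1434553_at they were 10.77, 10.78 and 10.99 in Mir137-/- and 11.06, 11.22 and 11.09 in Mir137+/+, also separate but lower, with a difference of -0.28 (95% CI -0.52 to -0.04, adjusted p = 0.16). The former reached a call without Mir137+/+ replicate 2, at 0.68 (adjusted p = 0.0233). The other probe sets, 1439353_x_at at 6.66 to 7.26 in Mir137-/- and 7.01 to 7.81 in Mir137+/+ and 1456718_at at 6.85 to 7.41 and 7.03 to 7.74, overlapped between genotypes and gave -0.42 (95% CI -0.95 to 0.11) and -0.17 (95% CI -0.66 to 0.31). No single direction for Tlcd4 can be read from these values.

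Alg14 anchors the enzyme that adds the second sugar of the dolichol-linked precursor of N-glycans to the membrane of the endoplasmic reticulum. Probe set 1419114_at was at 8.11, 8.11 and 8.2 in Mir137-/- and at 8.24, 8.22 and 8.4 in Mir137+/+. These were separate by a small margin, and the difference of -0.15 did not pass (95% CI -0.37 to 0.07, adjusted p = 0.429). The differences on 1419115_at and 1419116_at were 0.07 (95% CI -0.17 to 0.31) and 0.02 (95% CI -0.26 to 0.3), with overlapping groups. All 3 intervals lay within the 1.5-fold threshold on both sides, but 1419116_at lay below the lower quartile on all arrays, at 2.85 to 3.2, and carries little information on Alg14.

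Plppr4 and Plppr5 encode membrane proteins related to lipid phosphate phosphatases that are known from the outgrowth and synapses of neurons. All 5 of their probe sets lay below the array median on every array, at 1.84 to 4.16. Plppr4 read 3.2, 2.87 and 3.15 in Mir137-/- against 3.6, 3.27 and 3.09 in Mir137+/+ on 1427247_at, a difference of -0.25 (95% CI -0.59 to 0.1). On 1434685_at it read 2.15, 2.62 and 2.01 against 1.87, 1.86 and 1.84, separate by genotype at 0.4 without passing (95% CI 0.05 to 0.75, adjusted p = 0.161). Among the Plppr5 probe sets the differences were -0.02 (1429249_at), -0.17 (1434925_at) and -0.04 (1438344_at), and all overlapped. At such low levels the array gives little information on either gene in liver. Of the 21 probe sets, 7 lay below the array median on all arrays with 0 called by either test (1 by limma and 0 by the methods' t-test at an unadjusted p below 0.05), and the 14 others held all 4 calls. The 15 probe sets that did not pass the adjusted p had 95% intervals that reached from -0.95 to 1, so changes of up to 2-fold lay within the widest of them.

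**Figure D2:**
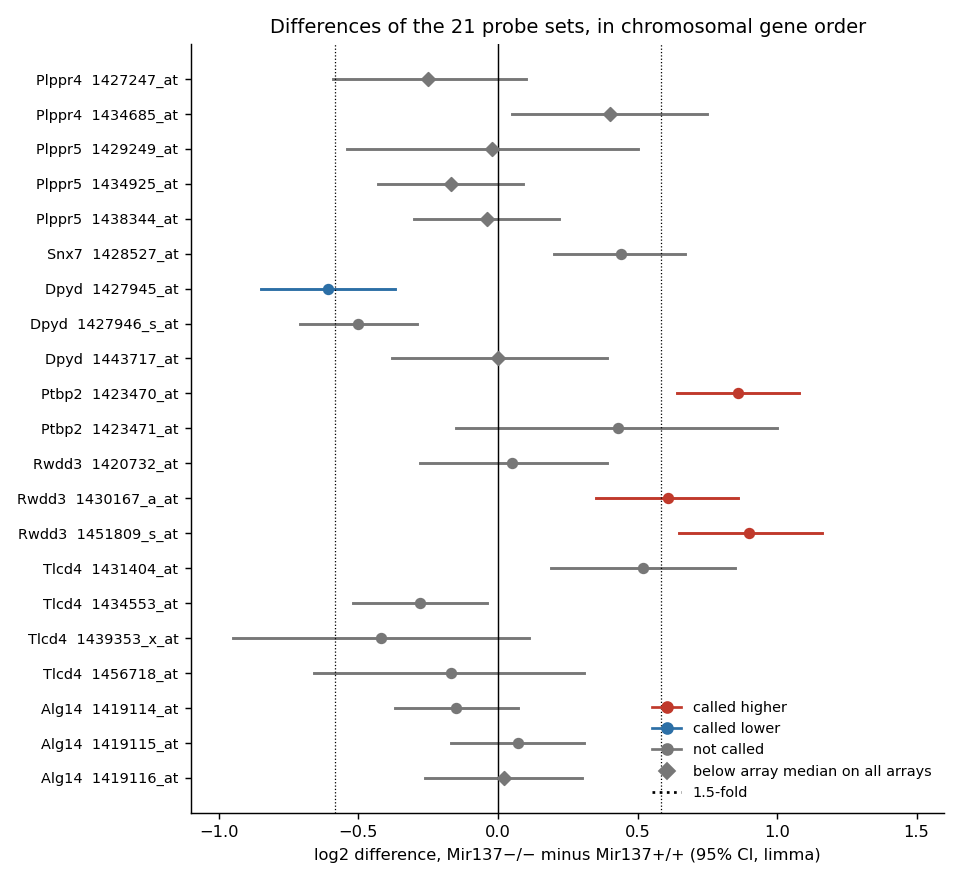
Log2 difference of Mir137-/- minus Mir137+/+ (x axis, point) with its 95% CI (bar, limma, 3 arrays per genotype) for the 21 probe sets in the chromosomal order of their genes (y axis), with dotted lines at 1.5-fold. Ptbp2 (0.86) and Rwdd3 (0.9 and 0.61) lie to the right, both brighter Dpyd probe sets (-0.61 and -0.5) to the left, and the dim probe sets of Plppr4 and Plppr5 between -0.25 and 0.4.

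The promoter windows of the genes with a call are shown because these neighbours went in different directions. Each window runs from 250 bases before to 50 after the RefSeq start (300 bases, GRCm38.p6, C57BL/6J reference sequence, read 5′ to 3′ on the gene's strand). Capitals mark GC boxes, GGGCGG on either strand with overlapping copies counted. Ptbp2 lies at chr3:119783339-119783638 on the - strand, Rwdd3 at chr3:121171646-121171945 on the - strand and Dpyd at chr3:118561930-118562229 on the + strand.
Ptbp2: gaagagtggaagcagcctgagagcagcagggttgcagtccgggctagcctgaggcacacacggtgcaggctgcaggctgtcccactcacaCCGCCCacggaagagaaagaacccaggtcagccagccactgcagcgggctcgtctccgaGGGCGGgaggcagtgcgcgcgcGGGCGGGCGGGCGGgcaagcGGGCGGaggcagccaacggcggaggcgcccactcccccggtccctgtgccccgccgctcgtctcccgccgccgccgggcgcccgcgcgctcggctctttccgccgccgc
Rwdd3: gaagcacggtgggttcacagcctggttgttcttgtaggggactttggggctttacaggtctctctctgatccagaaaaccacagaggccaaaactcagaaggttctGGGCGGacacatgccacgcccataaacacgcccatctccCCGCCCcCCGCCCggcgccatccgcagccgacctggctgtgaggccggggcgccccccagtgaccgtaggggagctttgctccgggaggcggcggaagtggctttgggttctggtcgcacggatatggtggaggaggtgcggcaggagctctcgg
Dpyd: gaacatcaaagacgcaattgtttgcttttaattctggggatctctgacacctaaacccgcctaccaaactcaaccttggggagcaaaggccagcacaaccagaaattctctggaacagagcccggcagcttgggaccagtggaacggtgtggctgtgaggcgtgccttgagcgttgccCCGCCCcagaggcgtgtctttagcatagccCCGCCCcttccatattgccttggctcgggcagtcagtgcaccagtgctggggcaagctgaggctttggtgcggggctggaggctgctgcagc
The Ptbp2 window held 6 GC boxes and 36 CpG sites at a GC content of 74.7%, the Rwdd3 window 3 GC boxes and 20 CpG sites at 64%, and the Dpyd window 2 GC boxes and 11 CpG sites at 58.3%. A GC box was present in 35.7% of all 32851 windows of the table, whose median was 7 CpG sites and a GC content of 52.7%. None of the windows shown held CCAAT (in 37.4% of all) or TATAAA (in 13.6%), each searched on both strands. The alleles carried by the Mir137-/- mice were not read here.

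To place the 8 genes among their neighbours, measured genes of chromosome 3 were ranked by their order away from Mir137, each represented by its brightest probe set. At this level 5.67% of the 18193 genes were called, with the adjustment over genes. Of the 10 nearest genes on each side, 3 of 20 were called (15%), all higher: Ptbp2, Rwdd3 and Slc44a3. Dpyd was not among them, because its brightest probe set is the one under the fold threshold. Slc44a3, of the choline transporter-like family, rose by 0.71 (SE 0.1, adjusted p = 0.00384), which was lost with Xist as a term (0.68, adjusted p = 0.0742) and without the pancreas arrays (0.69, adjusted p = 0.0587). Without the 8 flanking genes, 1 of the 12 remaining nearest genes was called (8.33%).

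Further out, 1 of 30 genes at ranks 11 to 25 was called (3.33%), 5 of 50 at ranks 26 to 50 (10%), 11 of 100 at ranks 51 to 100 (11%), 52 of 713 on the rest of the chromosome (7.29%) and 959 of 17119 on other chromosomes (5.6%). Median absolute differences were 0.26 for the 20 nearest genes and 0.27, 0.14 and 0.19 for the next groups, against 0.14 on the rest of the chromosome and 0.15 elsewhere. The share called did not fall steadily with rank. The sides were unequal within 50 ranks: 0 of 50 genes were called on the side of Snx7 and 9 of 50 (6 higher, 3 lower) on the side of Dpyd. On the side of Snx7, 11 of the 50 had an unadjusted limma p below 0.05, and the methods' t-test called 0, with 10 at an unadjusted p below 0.05. At ranks 51 to 100 the counts were 5 and 6 of 50. The difference between the sides was seen after the values were known and was not tested.

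**Figure D3:**
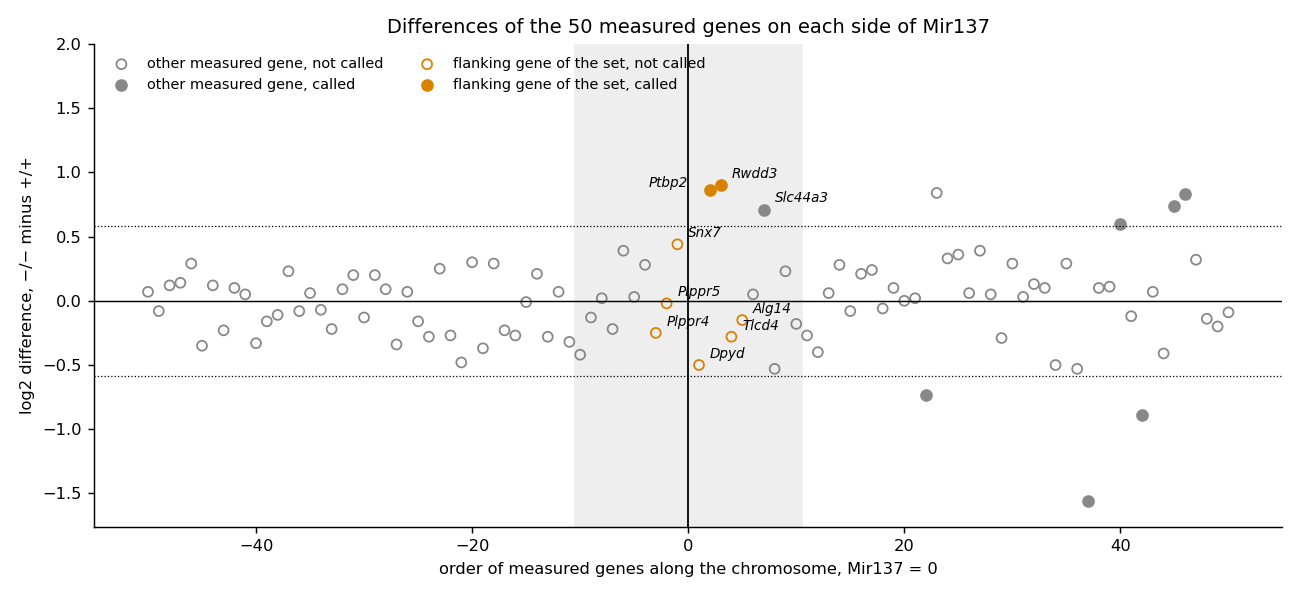
Log2 difference of Mir137-/- minus Mir137+/+ (y axis) of the 50 measured genes on each side of Mir137 by rank along the chromosome (x axis), with filled points called, the 8 flanking genes in orange, the 20 nearest genes shaded and dotted lines at 1.5-fold. All 9 called genes lie at positive ranks, the side of Dpyd.

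The other genes of each pathway or family were read next, at gene level, to set each flanking gene beside its partners. Over 7 lists, 96 of 104 genes were measured. Of these, 8 were called (8.33%, with 5 higher and 3 lower), against 5.67% of all genes. Without the flanking genes 6 of 88 were called. The list for pyrimidine breakdown holds enzymes that act before Dpyd and enzymes that act after it. Of 11 genes measured, 2 were called, both lower: Upp2, a uridine phosphorylase of liver that releases the uracil Dpyd acts on, at -1.38 (adjusted p = 0.00164), and Abat, the aminotransferase that removes beta-alanine, at -0.93 (adjusted p = 0.00144), which was -0.41 and not called with the probe sets of a gene averaged. Dpys, the dihydropyrimidinase that acts next after Dpyd, was at -0.48 (adjusted p = 0.00966), close to the -0.5 of Dpyd and likewise under the fold threshold. Upb1, which acts after Dpys, was at 0.03 (adjusted p = 0.876). The list median was -0.24, against 0 over all genes.

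Ptbp2 was the only called gene of 14 measured RNA-binding proteins of the PTB group and neuronal splicing. Its relatives Ptbp1 and Ptbp3 were at 0.03 (adjusted p = 0.84) and 0.06 (adjusted p = 0.719). Elavl1, a widely expressed stabiliser of messages, was at -0.48 (adjusted p = 0.0259), but at 0.23 with the probe sets of a gene averaged, and was called without Mir137-/- replicate 2 (-0.59, adjusted p = 0.0132). Nova2, a neuronal splicing factor, was at 0.41 (adjusted p = 0.0536). The list median was 0.05.

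Rwdd3 was likewise the only called gene of 12 measured for SUMO conjugation, with a list median of 0.07. Senp5, a SUMO protease, was at -0.4 (adjusted p = 0.0322) and Pias2, a SUMO ligase, at 0.38 (adjusted p = 0.0618), which was -0.07 with the probe sets of a gene averaged. With that averaging, 0 genes of the list were called.

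Among 12 sorting nexins 0 were called by limma or the methods' t-test (4 and 6 at an unadjusted p below 0.05), with a median of -0.01. Snx7 at 0.44 and its partner Snx4 at 0.38 (adjusted p = 0.0302) were the only members with an adjusted p below 0.05. Another partner, Snx30, was at 0.18 (adjusted p = 0.317).

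Of 12 lipid phosphate phosphatases and related proteins 2 were called higher, Plpp5 at 0.77 (adjusted p = 0.00173) and Plppr1 at 0.78 (adjusted p = 0.0183), whereas Plppr4 and Plppr5 were not. The Plppr1 call was lost under the methods' t-test (adjusted p = 0.108), with Xist as a term (adjusted p = 0.0612), and without Mir137+/+ replicate 1 (adjusted p = 0.0605) or 3 (adjusted p = 0.0699). The next by p were Plpp1 at 0.33 (adjusted p = 0.0819) and Plppr2 at 0.41 (adjusted p = 0.11), with a list median of 0.05. Of 14 TLC domain genes Tram2 rose by 0.77 (adjusted p = 0.00293) and Tlcd2 fell by 0.61 (adjusted p = 0.00753). Both calls were lost with Xist as a term (adjusted p = 0.0531 and 0.0826) and without the pancreas arrays (adjusted p = 0.0534 and 0.0653), and 1 was left without Mir137-/- replicate 2, where Tlcd2 was at -0.54. After quantile normalization Tlcd2 was at -0.57 and 1 gene of the list was called. With the probe sets of a gene averaged, Tram2 was at 0.44 and again 1 gene was called. Cers2, a ceramide synthase, was at -0.4 (adjusted p = 0.0249) and Cln8 at 0.31 (adjusted p = 0.0398), and the list median was -0.08.

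In the pathway of Alg14, the assembly of the dolichol-linked oligosaccharide, 0 of 21 genes were called by limma or the methods' t-test (3 and 4 at an unadjusted p below 0.05), with a median of -0.06. The smallest p values belonged to Dpm1, a subunit of dolichol-phosphate mannose synthase, at -0.31 (adjusted p = 0.0683), and Mpdu1 at -0.29 (adjusted p = 0.0788). Alg13, the catalytic partner of Alg14, was at -0.06 (adjusted p = 0.763).

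**Figure D4:**
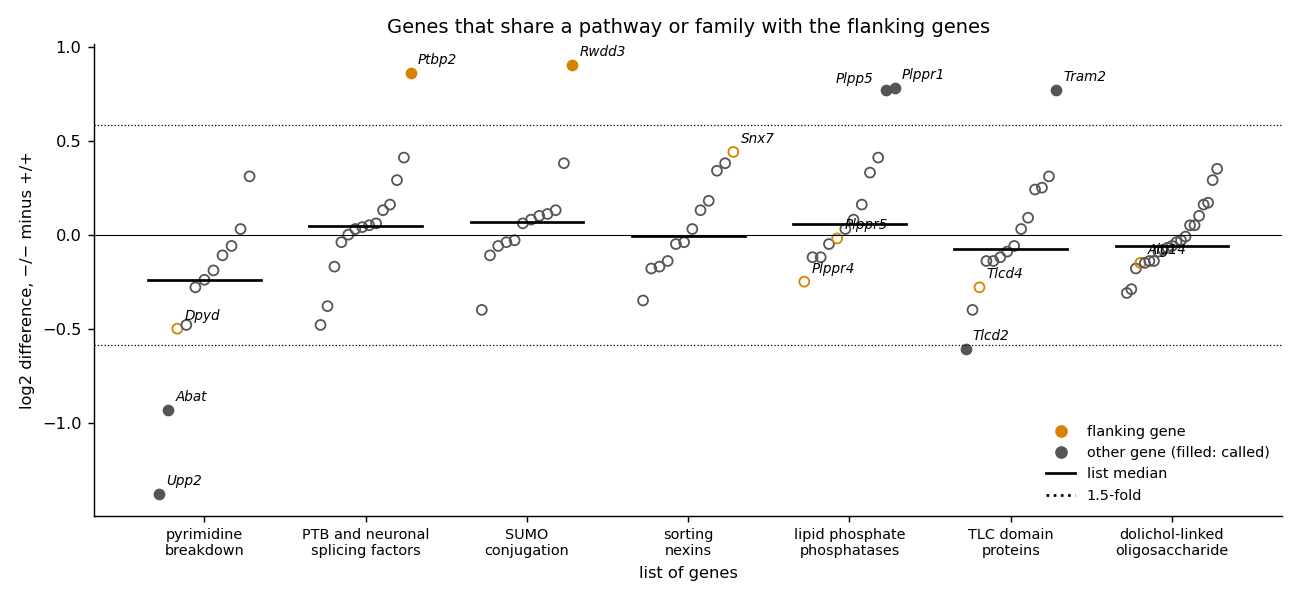
Log2 difference of Mir137-/- minus Mir137+/+ (y axis) of the 96 measured genes of 7 pathways or families (x axis), 1 point per gene, with the 8 flanking genes in orange, called genes filled, black bars at the list medians and dotted lines at 1.5-fold. Ptbp2 and Rwdd3 are the called genes of their lists, whereas Dpyd lies beside Dpys, above the called Abat and Upp2.

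The genes most like each called neighbour over the 6 arrays were found by Pearson correlation of log2 levels, as a description that includes the difference between genotypes. These genes were picked as the highest of all measured genes outside the flanking genes, so a high r follows in part from the picking. For Ptbp2 they were Nck2 (r = 0.9984), Plpp5 (0.9974) and Cirbp, a cold-inducible RNA-binding protein (0.9968). For Rwdd3 they were Lce3c (0.9992), Sel1l3 (0.9947) and Prag1 (0.9929). Lce3c itself differed by only 0.26 between genotypes (limma adjusted p = 0.0721) and was not called. For Dpyd they were Zfp719 (0.9987), Atrnl1 (0.9981) and 9330151L19Rik (0.9979).

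**Figure D5:**
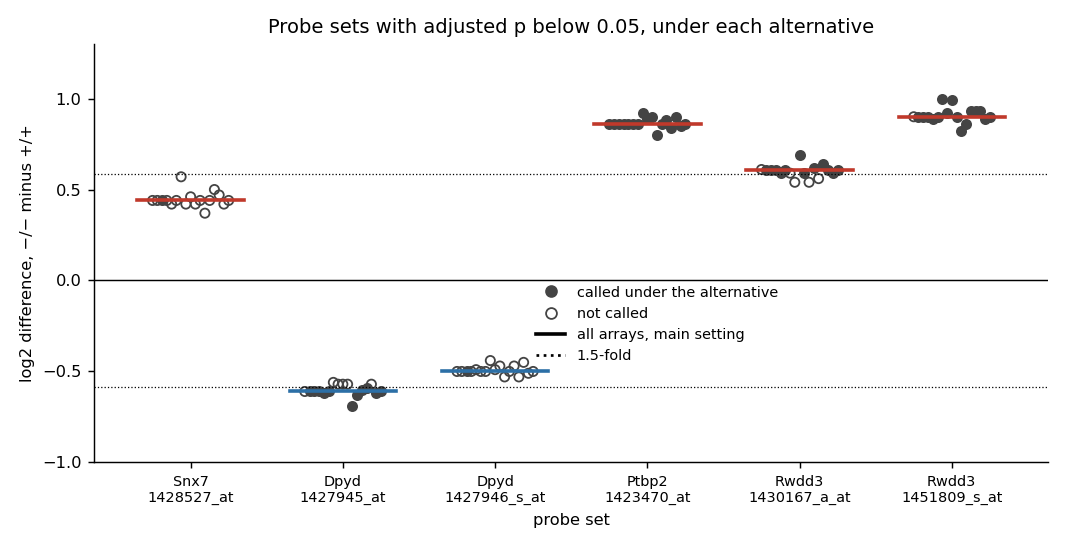
Log2 difference of Mir137-/- minus Mir137+/+ (y axis) of the 6 probe sets with an adjusted p below 0.05 (x axis), with a coloured bar at the reported value, 1 point for each of 17 alternatives (filled where called) and dotted lines at 1.5-fold. Ptbp2 1423470_at was called at every point (0.8 to 0.92), whereas Dpyd 1427945_at and Rwdd3 1430167_a_at lie at the 1.5-fold line and were called at some.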

How the data were processed

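Liver RNA of 3 Mir137-/- and 3 Mir137+/+ mice was hybridised to Affymetrix Mouse Genome arrays, grouped here by the genotype in the labels. The deposited values were log2 probe set levels made by the authors (1.22 to 13.79). The methods name RMA with a baseline-to-mean step, and the labels name GCRMA without a version, so which of them made the values is unsettled. The values were levels, not centred per probe set, and were used as deposited. No detection calls were used, so low values have no stated floor. Precision is limited by the number of arrays, since the smallest two-sided exact p with 3 arrays in each of the groups is 0.1.

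Control probe sets (64) did not enter the fit. Of 45037 tested, 34945 had 1 gene symbol, 932 several and 9160 none in the platform annotation, and 34741 were matched to the reference table by Entrez gene. Differences were fitted with lmFit and eBayes of limma 3.58.1 in R 4.3.3 on all 6 arrays with no covariate, as Mir137-/- minus Mir137+/+, two-sided, with Benjamini-Hochberg adjustment over 45037 probe sets or, for gene-level results, over the brightest probe set of each of 18193 genes. The fit was tested on simulated data. Sequences are from RefSeq (GRCm38.p6). Since no build is given in the sources used here for the probe sets, neighbours were taken in gene order only.

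The members and the lists were chosen with earlier results of these data known. Named were all members, called genes among the 10 nearest on each side, in each list the called genes and the 2 others with the smallest p, and the 3 genes most correlated with each called member. Ptbp1, Ptbp3, Upb1, Snx30 and Alg13 were named as partners after their values were seen. The other 8 genes of the lists were not analysed here. Alternatives were the methods' t-test, unadjusted p, no fold threshold, trend and robust variances, array weights (statmod 1.5.0), a replicate block, Xist above 8 as a term, leaving out the 2 pancreas arrays or each array in turn, quantile normalization, median centring, leaving out the 40% dimmest probe sets, and, for genes, the mean of all probe sets or no _s_at and _x_at probe sets. Unadjusted p and no fold threshold can add calls but cannot remove any.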

Additional observations from a re-analysis of the deposited data

How the results depend on the processing

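Of the 21 flanking probe sets, 3 were called higher and 1 lower. The methods' t-test left 1 and 0. The lower call, Dpyd 1427945_at, was also lost with Xist as a term, without the pancreas arrays and after quantile normalization (0 each), and no fold threshold gave 2 lower calls. With each array left out in turn, 2 to 3 were called higher and 0 to 1 lower (0 without Mir137-/- replicate 1 or 2). Among the 20 nearest genes 3 were called, 6 with no fold threshold and 3 to 4 with 1 array left out. Of the list genes 8 were called, 16 with no fold threshold, 5 with Xist as a term, 5 with a gene's probe sets averaged and 7 to 8 with 1 array left out.

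None of the flanking probe sets whose difference turned direction was called under any setting. With Xist as a term they were Plppr5 1429249_at (0.36) and 1438344_at (0.16), Rwdd3 1420732_at (-0.14) and Tlcd4 1456718_at (0.07). Without the pancreas arrays they were Plppr5 1429249_at (0.29), Rwdd3 1420732_at (-0.11) and Tlcd4 1456718_at (0.18). With 1 array left out, Plppr5 1429249_at ranged from -0.22 to 0.28 and 1438344_at from -0.14 to 0.05, Rwdd3 1420732_at from -0.08 to 0.15, Tlcd4 1456718_at from -0.33 to 0.06, and Alg14 1419115_at from -0.01 to 0.12 and 1419116_at from -0.05 to 0.13. With the mean of all probe sets Elavl1 was at 0.23 (from -0.48) and Pias2 at -0.07 (from 0.38). The cause was not tested.

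Deviations of same-numbered replicates correlated at 0.081, 0.211 and 0.004, over 0.1 only in the replicate 2 pair, whose arrays both had pancreas transcripts. Of the 6 arrays, 4 correlated best with their own number. These values do not settle whether same-numbered arrays share an effect. The labels state no pairing, and the main fit did not pair the samples. With the replicate block 826 probe sets were called higher and 1091 lower, against 874 and 1162, and 3 and 1 of the flanking probe sets. Leaving out dim probe sets removed some of the dimmest members, which have no value there. Signal limits Plppr4 and Plppr5, both below the array median.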
